A study of Homo sapiens with 24 samples.

Results

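Vehicle-treated MOLM-13 cells were compared with vehicle-treated MV4-11 cells on day 6 of culture. The 6 arrays were taken by the cell line, agent and day in their labels, 3 per line, from 24 arrays in all. MOLM-13 is labelled as an acute myeloid leukemia line with the MLL-AF9 fusion and was grown in RPMI with 10% FBS, and MV4-11 as a line of biphenotypic B myelomonocytic leukemia with the MLL-AF4 fusion, grown in IMDM with 10% FBS. Both groups received only 0.1% DMSO, the vehicle of EPZ004777, an inhibitor of the histone methyltransferase DOT1L, which the other day 6 cultures received at 3 uM. The 3 arrays of a group are biological replicates of 1 line per fusion, so that the fusion, the rest of the line's genome and the culture medium cannot be told apart in any difference below. How the replicates were made was not stated in the sources used here, and p-values measure only the spread between these samples.

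Fusions of MLL (KMT2A) replace the carboxyl-terminal part of a histone H3 lysine 4 methyltransferase with part of a partner protein, AF9 (MLLT3) or AF4 (AFF1), both of which belong to the machinery of transcription elongation and are linked to DOT1L. Such fusions are found in acute leukemias of myeloid, lymphoid and mixed type, and keep HOX and MEIS1 genes active in early blood cells. Myeloid cells are told apart by the proteases of their granules, by the scavenger, Fc and pattern receptors of monocytes, by MHC class II molecules on antigen-presenting cells, and by the transcription factors of each lineage.

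Levels are log2 intensities of 1 probe set per gene, differences are MOLM-13 minus MV4-11 on the log2 scale, and errors of differences are SE of the model. The lowest value of every array was 2.19, so a level near it means that no signal was measured, and the size of a difference against it depends on the background adjustment. Values of different genes come from different probes and are not set against each other as levels. The 3 arrays of a line correlated at 0.995 or more, and arrays of different lines at 0.898 to 0.902. The 3' over 5' difference of the control probe sets for ACTB and GAPDH, a sign of RNA quality, was 0.95 to 1.15 in MOLM-13 arrays and 0.57 to 0.58 in MV4-11 arrays. With this difference as a covariate, 1834 genes were called. MV4-11 replicate 1 stood apart from the other MV4-11 arrays of day 6 in interferon-stimulated genes, which are given by array below.

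Of 10971 genes tested, 1865 (17.0%) were called at a limma adjusted p under 0.05 with at least a 2-fold difference, 878 (8.0%) higher and 987 (9.0%) lower in MOLM-13. At the adjusted p alone 6996 genes (63.8%) passed, and the 3 arrays of each line did not overlap in 7727 genes (70.4%), so the count depends on the 2-fold minimum. The median over all genes was -0.02. At least 16-fold differences were found in 210 genes, 97 of them higher and 113 lower. Of the 831 called genes with several tested probe sets, 766 had the same sign in every one. Of the genes called and named below, 21 fell short of the call when all probe sets of a gene were averaged, namely ALOX5, ARID1B, BCL6, CD24, CD74, CIITA, CTSS, CYBB, DHCR7, EAF2, ERAP2, FOCAD, GATM, HACD4, ITGAM, KLHL9, KMT2A, PGGHG, RNASEH2B, S100A8 and ZNF493. With the 3' over 5' covariate, ARID1B, AZU1, CD24, CENPA, FOCAD, NQO1, ZNF493 and ZNF675 were under the 2-fold minimum, and with the MV4-11 vehicle arrays of all 3 days AZU1, CD24, HACD4 and ZNF493 were.

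The highest differences ran from an abundant transcript in MOLM-13 to the bottom of the range in MV4-11. CA2, a carbonic anhydrase of red cells and osteoclasts, was at 13.14, 12.67 and 13.14 in MOLM-13 arrays and 2.19 in all 3 MV4-11 arrays, a difference of 10.80 ± 0.09. PRG2, the major basic protein of eosinophil granules, was at 14.37, 14.40 and 14.43 in MOLM-13 and at 3.60, 3.72 and 3.65 in MV4-11 (10.74 ± 0.15). All MOLM-13 arrays of both genes lay more than 10 log2 units above all MV4-11 arrays. DACH1, a transcriptional corepressor, reached 12.11, 12.14 and 12.08 in MOLM-13 against 2.19 in MV4-11. ZNF521, a zinc finger cofactor of early blood progenitors, was at 11.68, 11.60 and 11.59 in MOLM-13 against 2.19 in MV4-11. CD93, a surface glycoprotein of myeloid and progenitor cells, differed by 7.23 ± 0.17, and SUCNR1, the receptor for succinate, by 7.61 ± 0.10. RUBCNL (PACER), which promotes autophagosome maturation, differed by 9.49 ± 0.09, and the small GTPase RAB13 by 8.11 ± 0.16. The other 7 of the 15 highest were TSPOAP1, TPTE2P6, SKIDA1, FEZ1, ZDHHC2, SYNPO2 and HSH2D, with differences of 7.45 to 8.24.

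In the opposite direction, MV4-11 held transcripts that were near or at the lowest value in MOLM-13. BEX3, an X-linked adaptor of neurotrophin receptor signaling, was at 2.42, 2.97 and 3.34 in MOLM-13 and at 12.84, 12.84 and 12.80 in MV4-11 (-9.91 ± 0.25). PITX1, a homeobox factor of the hindlimb and pituitary, was at 2.27, 2.89 and 2.19 in MOLM-13 and at 11.60, 11.40 and 11.68 in MV4-11. CDKN2A, which encodes the cell cycle inhibitor p16 and the protein ARF, was at 4.12, 4.98 and 4.28 in MOLM-13 and at 12.34, 12.32 and 12.31 in MV4-11 (-7.87 ± 0.17). Each of these arrays of MOLM-13 lay at least 7 log2 units below each of MV4-11. FOXP2, a forkhead factor, differed by -8.65 ± 0.11, NRIP1, a corepressor of nuclear receptors, by -8.66 ± 0.15, and UNC5C, a netrin receptor, by -8.00 ± 0.08. HORMAD1, a meiotic chromosome protein whose expression is otherwise largely limited to germ cells, differed by -8.84 ± 0.08, and GTSF1, a cofactor of piRNA pathways in the germ line, by -8.29 ± 0.09. NDN, an imprinted gene of the MAGE family, differed by -8.02 ± 0.14. KCNE5, CEP15, ADD2, EPIST, NAV3 and ZNF91 completed the 15 lowest, with differences of -7.38 to -9.51.

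**Figure D1:**
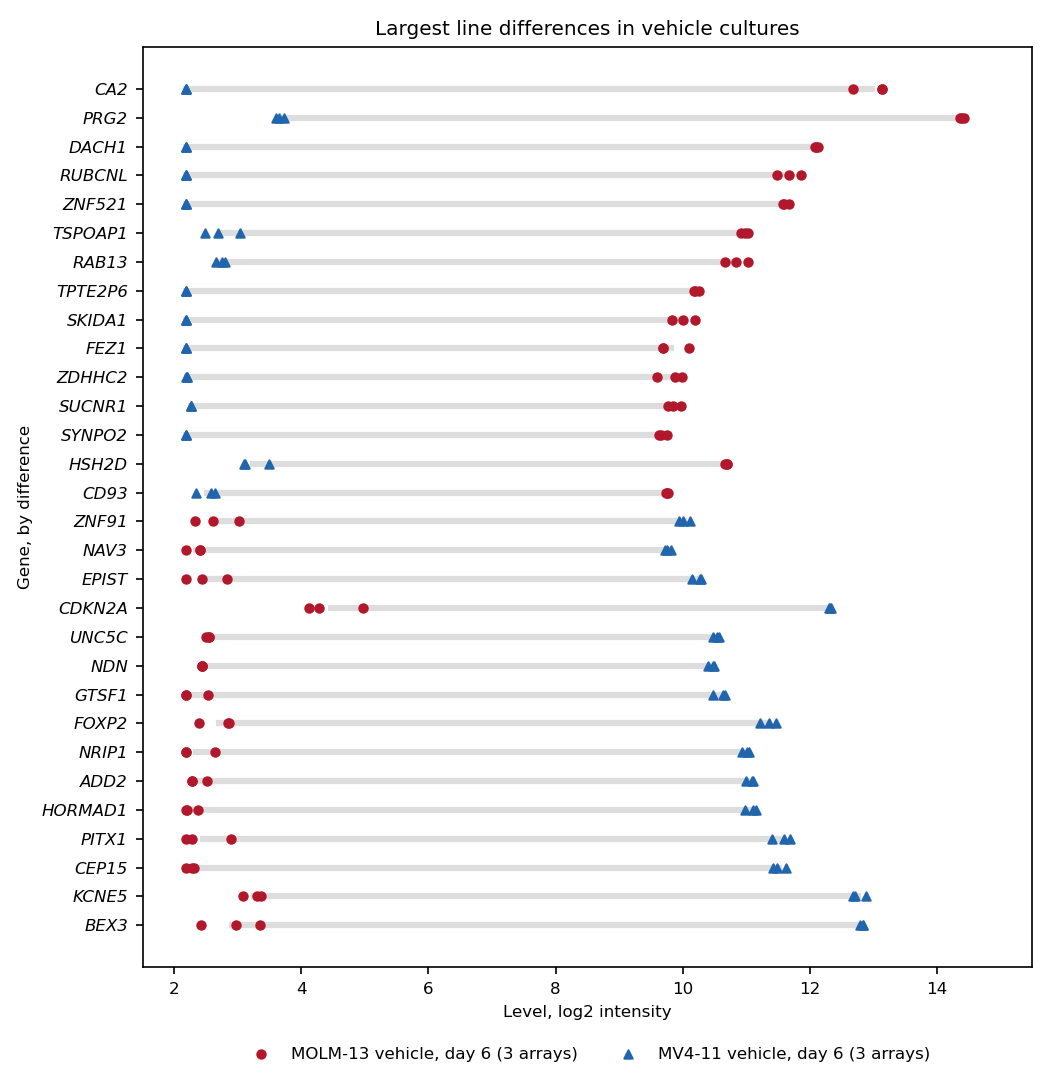
Log2 intensity of the 15 highest and 15 lowest differences in each vehicle array of day 6 (x axis), genes ordered by the difference (y axis); circles are MOLM-13 arrays, triangles MV4-11 arrays, and grey lines join the group means. Genes were chosen among those without overlap between the lines, and most levels of the lower line sit near the bottom of the range at 2.19.

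Genes of granulocyte granules were more often higher than lower in MOLM-13. Of 11 primary granule genes tested, 5 were called higher and 1 lower, with a median of 0.86 against -0.02 over all genes. The share called was 54.5%, against 17.0% of all genes. In inhibitor-treated cultures 1 was called higher and 2 lower, with a median of 0.38. MPO, the myeloperoxidase that makes hypochlorous acid, was at 11.09, 11.28 and 11.34 in MOLM-13 and at 6.12, 6.14 and 6.00 in MV4-11, 5.15 ± 0.20 (adjusted p = 7.41e-15). The serine protease genes ELANE and PRTN3 were high in both lines, with ELANE at 15.02, 15.09 and 15.08 in MOLM-13 and 13.10, 13.16 and 13.16 in MV4-11. PRTN3 differed by 1.63 ± 0.08 and the neighbouring AZU1, which encodes the antimicrobial protein azurocidin, by 1.02 ± 0.07 (0.97 without MOLM-13 replicate 3 and 0.98 without MV4-11 replicate 2, under the 2-fold minimum). MOLM-13 arrays exceeded all MV4-11 arrays in each. CTSG was at 0.86 ± 0.07, short of the 2-fold minimum, and LYZ, the lysozyme shared with monocytes, at -0.02 ± 0.11. MS4A3, a membrane protein of granulocyte and monocyte progenitors, was the member that was lower (-1.42 ± 0.07).

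Eosinophil and basophil genes split from the stem cell factor receptor of mast cells. Beside PRG2, EPX, the eosinophil peroxidase, was at 6.86, 6.43 and 7.05 in MOLM-13 and at the lowest value in all MV4-11 arrays (4.59 ± 0.13), and GATA2, a factor of progenitors, mast cells and basophils, was at 11.65, 11.67 and 11.68 in MOLM-13 and 6.61, 6.55 and 6.56 in MV4-11 (5.09 ± 0.30). KIT, the stem cell factor receptor, was at 3.08, 2.94 and 2.94 in MOLM-13 and 8.06, 8.18 and 8.23 in MV4-11 (-5.17 ± 0.10). Only these 4 of 16 listed genes passed the filter, and EPX and KIT passed it only through the line where they were high, so that a difference was fixed by the filter. PRG2 was under 4 in vehicle MV4-11 arrays but had a mean of 6.31 in the treated MV4-11 arrays of day 6. Of 7 neutrophil maturation genes tested, CSF3R, the G-CSF receptor, was higher at 1.68 ± 0.08 and S100A8, a calprotectin subunit, at 1.15 ± 0.11. Its partner S100A9 was at -0.20 ± 0.19. Among the 7 the share called was 28.6%, against 17.0% of all genes.

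Called monocyte and dendritic cell genes were more often lower than higher. Of 13 monocyte and macrophage genes 2 were called higher and 4 lower, but the list median was -0.01 against -0.02 over all genes. At an unadjusted limma p under 0.05 with no minimum 4 were higher and 6 lower. In inhibitor-treated cultures 3 were called higher and 5 lower, with a median of 0.14. MPEG1, the pore-forming perforin-2 of macrophages, was at 4.67, 4.67 and 4.47 in MOLM-13 and 9.42, 9.33 and 9.35 in MV4-11, and MS4A6A at 10.06, 10.24 and 10.00 in MOLM-13 and 13.11, 13.37 and 13.28 in MV4-11. The scavenger receptor CD36 was lower at -1.76 ± 0.15 and the macrophage colony-stimulating factor receptor CSF1R at -1.07 ± 0.09 (-0.98 without MOLM-13 replicate 1). ITGAM, the alpha chain of complement receptor 3, was higher, at 7.87, 7.98 and 7.98 in MOLM-13 and a wider 6.88, 6.60 and 5.68 in MV4-11 (1.56 ± 0.29), as was the lysosomal protease CTSS (1.31 ± 0.11). CD14, the lipopolysaccharide co-receptor, stood at the lowest value in all 6 arrays. Of 9 dendritic cell genes 3 were lower, led by CLEC10A, a galactose-binding lectin (-5.79 ± 0.24), and FCER1A, the alpha chain of the IgE receptor (-2.32 ± 0.17), and 1 was higher, SPIB (1.33 ± 0.17). Called were 46.2% of the 13 and 44.4% of the 9, against 17.0% of all genes.

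Lymphoid, erythroid and platelet genes were few, with 5 to 7 per list above the filter. NCAM1 (CD56), an adhesion molecule of NK cells that some myeloid leukemias carry, was at 9.57, 9.61 and 9.76 in MOLM-13 and 3.14, 2.93 and 3.08 in MV4-11 (6.59 ± 0.20). CD3D, a chain of the T cell receptor complex, was uneven, at 3.90, 6.08 and 6.18 in MOLM-13 against the lowest value in all MV4-11 arrays. Although MV4-11 carries the biphenotypic label, only 7 of 22 listed B-lymphoid genes passed the filter, 1 of them higher (CD24, 1.14 ± 0.18) and 1 lower (PAX5, -1.31 ± 0.26). PAX5, the factor that commits cells to the B lineage, was at only 4.42, 4.72 and 4.08 in MV4-11, and IGLL1, the surrogate light chain, was measured in both lines (0.97 ± 0.15, not called, and 1.00 to 1.03 when 1 of MOLM-13 replicate 3, MV4-11 replicate 2 or MV4-11 replicate 3 was left out). Of 5 erythroid genes CA2 alone was called. NFE2, a factor of megakaryocytes and red cells, was higher in MOLM-13 by 3.09 ± 0.10, and the platelet integrin chain ITGA2B was at -0.64 ± 0.17. Of 10 stem and progenitor genes 4 were higher, with LAPTM4B, a lysosomal membrane protein, at 3.46 ± 0.05 and the signaling inhibitor SOCS2 at 2.05 ± 0.05, and 3 were lower. Of the lower ones KIT and BEX3 passed the filter only through MV4-11, which fixed their direction. CA2 was at the lowest value in treated MV4-11 arrays of day 6 too. The lists of this paragraph had 20% to 70% of their tested members called, against 17.0% of all genes.

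MHC class II genes were lower in MOLM-13 in 8 of 10 tested, with a median of -2.09, and 1 was higher. Over all genes 9.0% were called lower and 8.0% higher. HLA-DRA, the invariant alpha chain of HLA-DR, was at 2.88, 2.77 and 3.22 in MOLM-13 and 9.04, 9.18 and 9.09 in MV4-11 (-6.14 ± 0.18). HLA-DPA1 was at 2.21, 2.58 and 2.40 in MOLM-13 and 7.81, 7.92 and 7.83 in MV4-11 (-5.45 ± 0.10), and HLA-DRB1 at 4.86, 6.35 and 4.86 in MOLM-13 and 10.19, 10.22 and 10.35 in MV4-11 (-4.89 ± 0.25). HLA-DMA, which with HLA-DMB loads peptides, differed by -3.13 ± 0.14. HLA-DOB, a chain of the HLA-DO dimer that restrains HLA-DM, went the other way, at 8.68, 8.86 and 8.87 in MOLM-13 and 4.11, 4.36 and 5.17 in MV4-11 (4.26 ± 0.21). The invariant chain CD74 (-1.51 ± 0.09) and the class II transactivator CIITA (-1.36 ± 0.19), named here after their values were seen, were among the 8 lower members. HLA-DMB was at -0.04 ± 0.32. Of the 8 lower members, HLA-DRA and HLA-DPA1 passed the filter only through MV4-11, so that their direction was fixed by it. In inhibitor-treated cultures, which are other arrays, 9 of the 10 were lower and HLA-DOB higher, with a median of -4.82. Genes of one family can share probe sequence, so the HLA genes are not wholly separate measurements.

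RefSeq promoters of 3 class II genes of chromosome 6 are shown because HLA-DOB differed in the opposite direction to the rest while carrying the same letters. The class II promoter is known for an X box and, nearer the start, a Y box whose core is CCAAT on either strand. CCAAT or its complement ATTGG was found in 7 of the 8 tested class II genes with a RefSeq promoter, and in 33.0% of all 27305 promoters over the same 250 bases before the start, a share that does not match genes by composition. Each has ATTGG or CCAAT in 2 places (in capitals), beginning 195 and 46 bases before the start in HLA-DRB1, 79 and 49 in HLA-DMA, and 98 and 74 in HLA-DOB. A match is a description of letters and not of a bound site. The sequences are on the minus strand of GRCh38.p14, at chr6:32589849-32590098, chr6:32953098-32953347 and chr6:32817003-32817252.
HLA-DRB1: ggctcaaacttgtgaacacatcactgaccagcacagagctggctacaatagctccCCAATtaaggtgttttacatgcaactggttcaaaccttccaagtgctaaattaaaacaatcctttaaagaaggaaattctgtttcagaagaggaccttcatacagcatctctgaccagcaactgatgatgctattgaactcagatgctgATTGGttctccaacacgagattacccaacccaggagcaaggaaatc
HLA-DMA: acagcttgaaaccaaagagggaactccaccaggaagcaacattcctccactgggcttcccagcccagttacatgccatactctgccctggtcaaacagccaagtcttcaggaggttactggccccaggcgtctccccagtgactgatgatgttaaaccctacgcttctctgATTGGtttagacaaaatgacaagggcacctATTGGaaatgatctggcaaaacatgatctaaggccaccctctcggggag
HLA-DOB: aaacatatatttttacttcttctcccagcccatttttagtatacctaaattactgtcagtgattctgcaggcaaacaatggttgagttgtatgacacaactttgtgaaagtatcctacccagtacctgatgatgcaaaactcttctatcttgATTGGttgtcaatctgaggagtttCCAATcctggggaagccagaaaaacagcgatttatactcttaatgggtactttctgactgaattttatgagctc

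**Figure D2:**
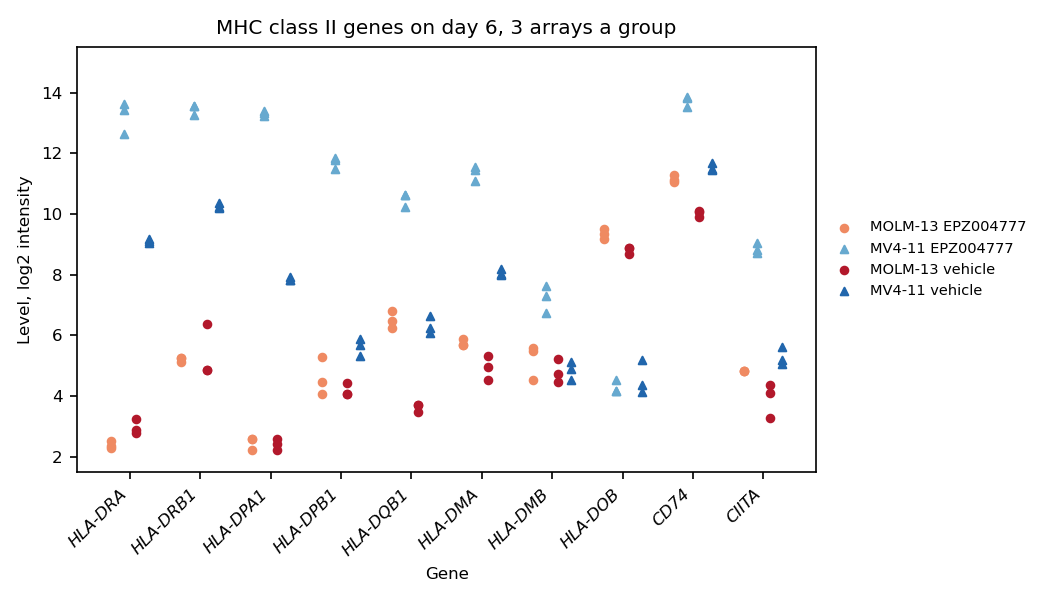
Log2 intensity (y axis) of the 10 tested MHC class II genes (x axis) in each day 6 array, 3 arrays a group; circles are MOLM-13, triangles MV4-11, dark symbols vehicle and light symbols EPZ004777. HLA-DOB is higher in MOLM-13, HLA-DMB overlaps between the vehicle groups, and the other 8 are lower in vehicle MOLM-13 than in vehicle MV4-11.

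Peptide supply to MHC class I differed little by count. Of 17 class I and antigen processing genes, ERAP1 and ERAP2, the peptidases that trim peptides in the endoplasmic reticulum, were higher, ERAP1 at 11.10, 10.92 and 10.99 in MOLM-13 and 8.24, 8.29 and 8.21 in MV4-11 (2.75 ± 0.07) and ERAP2 by 1.78 ± 0.15, and 0 were called lower in limma. At an unadjusted p under 0.05 with no minimum 6 were higher and 6 lower. The share called was 11.8%, against 17.0% of all genes. The 3 probe sets of ERAP1 above the filter disagreed, with 1 higher and 2 lower from -2.87 to 2.75 and a mean of -0.18, so its direction depends on the probe set.

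Growth factor and cytokine receptors were lower in 8 and higher in 3 of 34, with IL2RA, the alpha chain of the IL-2 receptor, at -2.12 ± 0.24 and IL1RAP, the accessory chain of IL-1 receptors, at -1.72 ± 0.09. IL7R was higher (1.86 ± 0.13). FLT3, the receptor tyrosine kinase known to carry an internal tandem duplication in both lines, was at 11.91, 12.25 and 12.01 in MOLM-13 and 12.46, 12.40 and 12.32 in MV4-11 (-0.34 ± 0.09). Among 17 chemoattractant receptors 4 were higher, including the sphingosine 1-phosphate receptor S1PR4 (4.51 ± 0.11) and the oxysterol receptor GPR183 (2.46 ± 0.24), and 3 lower, including the chemokine receptor CCR1 (-2.02 ± 0.08). Of 32 integrin and adhesion genes 9 were higher and 5 lower. CADM1, an immunoglobulin-type adhesion molecule, was at 11.80, 11.55 and 12.06 in MOLM-13 and 6.83, 5.76 and 5.57 in MV4-11 (5.75 ± 0.21), while the laminin receptor chain ITGA6 (-2.32 ± 0.28) and the leukocyte ligand ICAM1 (-1.65 ± 0.19) were lower. Shares called were 32.4% of the 34, 41.2% of the 17 and 43.8% of the 32, against 17.0% of all genes.

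Called innate sensing and inhibitory receptors were more often lower than higher in vehicle MOLM-13 cultures. FCER1G, the signaling gamma chain of Fc receptors, was at 3.71, 4.20 and 3.83 in MOLM-13 and 10.74, 10.66 and 10.17 in MV4-11 (-6.61 ± 0.18). It was 1 of 8 lower members among 29 lectin, Siglec, LILR and Fc receptor genes, with LILRB2 (-2.20 ± 0.11) and LILRA1 (-2.16 ± 0.06), and 2 members were higher. Of 25 Toll-like receptor and sensing genes 5 were lower and 0 higher at the call threshold in limma (11 lower and 2 higher at an unadjusted p under 0.05 with no minimum), TLR2 at -1.90 ± 0.07, TLR1 at -2.21 ± 0.31 and CD180, a TLR4-like receptor of B cells and myeloid cells, at -2.19 ± 0.10. LY86 (MD-1), the partner of CD180, was lower too (-1.24 ± 0.08), and so was the peptidoglycan sensor NOD2 (-1.08 ± 0.10). The share called was 34.5% of the 29 and 20% of the 25, against 17.0% of all genes. In inhibitor-treated cultures 10 of the 29 were called higher and 8 lower, and 5 of the 25 higher and 7 lower.

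Several HOX genes of the B and C clusters were lower in MOLM-13. Of 13 HOX and TALE genes tested 6 were lower and 0 higher in limma (9 lower and 1 higher at an unadjusted p under 0.05 with no minimum), with a median of -0.68. HOXB3 was at 2.77 in MOLM-13 and 6.98, 7.03 and 6.85 in MV4-11 (-4.18 ± 0.14), HOXB7 differed by -4.44 ± 0.26, HOXB6 by -3.39 ± 0.34 and HOXC6 by -4.69 ± 0.27. HOXB4 was lower too (-1.96 ± 0.18), and HOXB5 stood near 4.24 in all 6 arrays (0.01 ± 0.08). Of the 6 lower members, HOXB3 and HOXB7 passed the filter only through MV4-11, which fixed their direction. The TALE cofactor MEIS1 was at 10.42, 10.57 and 10.59 in MOLM-13 and 11.03, 10.98 and 11.10 in MV4-11 (-0.51 ± 0.08) and PBX3 at 0.58 ± 0.07, both under the 2-fold minimum. HOXA9 and HOXA10 were not analysed here. Of 21 other homeobox genes 6 were lower, with PITX1, the myeloid factor VENTX (-5.10 ± 0.14) and DLX1 (-1.99 ± 0.07), and 2 higher, with CUX2, a CUT domain factor of neurons, at 4.66 ± 0.07. PITX1 and VENTX passed the filter only through MV4-11, which fixed their direction. CUX2 was near the lowest value in vehicle and treated MV4-11 arrays of day 6. Called were 46.2% of the 13 and 38.1% of the 21, against 17.0% of all genes.

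Of 46 myeloid transcription factor genes 4 were higher and 9 lower. SPI1 (PU.1) differed by 0.08 ± 0.13, GFI1 by 0.14 ± 0.07, IRF8 by -0.57 ± 0.07 and CEBPA, the granulocyte factor, by 0.96 ± 0.07, all outside the call (CEBPA at 1.01 and called without MV4-11 replicate 3). IRF4, a factor of lymphoid, dendritic and plasma cells, was at 3.01, 3.01 and 3.07 in MOLM-13 and 8.38, 8.34 and 8.52 in MV4-11 (-5.39 ± 0.08). It passed the filter only through MV4-11, which fixed its direction. MITF, a factor of mast cells, osteoclasts and pigment cells, was higher (3.33 ± 0.27), as was ETS1 (2.90 ± 0.17), and the immediate early gene EGR3 was lower (-2.47 ± 0.29). Of 29 progenitor and lymphoid factors 7 were higher and 3 lower: with ZNF521 and GATA2 stood ZBTB16 (PLZF, 2.86 ± 0.18) and BCL6 (2.02 ± 0.19), against the WNT pathway factor TCF7L2 (-4.09 ± 0.21). MYB was at 0.12 ± 0.05, MYC at -0.02 ± 0.12 and MEF2C at 0.27 ± 0.06. In these lists 28.3% of the 46 and 34.5% of the 29 were called, against 17.0% of all genes.

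Of 28 genes of the DOT1L complex and MLL fusion partners 1 was higher and 3 were lower, 14.3% called against 17.0% of all genes. MLLT3 (AF9), the partner in the MOLM-13 fusion, was at 6.23, 5.68 and 5.60 in MOLM-13 and 2.83, 2.78 and 2.45 in MV4-11 (3.15 ± 0.16), and all 3 of its probe sets were higher (2.37 to 3.81). AFF1 (AF4), the partner in the MV4-11 fusion, was at 12.65, 12.57 and 12.54 in MOLM-13 and 12.25, 12.33 and 12.40 in MV4-11 (0.26 ± 0.05, 1 probe set). KMT2A itself was at -2.30 ± 0.08 on the probe set that stood for it, but its 7 probe sets disagreed, with 3 lower and 4 higher from -2.30 to 0.73, so no single difference of the gene is given. A probe set cannot tell a fusion transcript from the normal one unless its place in the transcript is known, which was not tested. DOT1L differed by 0.67 ± 0.13, the elongation factor ELL2 by -2.77 ± 0.23 and EAF2 by -1.56 ± 0.12. Among 21 listed MLL-fusion target genes 2 were higher, SENP6 (2.10 ± 0.09) and ARID1B (1.16 ± 0.14), and 1 lower, ADGRA3 (-4.93 ± 0.11). The share called of these 21 was 14.3% too.

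Interferon-stimulated genes moved with single arrays. The list median level was 5.89, 6.21 and 6.09 in MOLM-13 arrays 1 to 3, against 7.45, 5.98 and 5.50 in MV4-11 arrays 1 to 3. In MV4-11 vehicle arrays of other days it was 5.40 to 6.18 on day 2 and 7.96 to 8.71 on day 4. IFIT1, an RNA-binding antiviral protein, was at 5.61, 6.08 and 4.81 in MOLM-13 and at 7.98, 2.44 and 2.19 in MV4-11, so that MV4-11 replicate 1 lay above all MOLM-13 arrays and the other 2 below them (1.30 ± 0.94, adjusted p = 0.238). Without MV4-11 replicate 1 its difference was 3.19 (adjusted p = 2.08e-06). Of 38 tested, 1 was higher (DDX60, 2.58 ± 0.33) and 9 lower, 26.3% called against 17.0% of all genes. Without MV4-11 replicate 1 the count of called members was again 10, and with the MV4-11 vehicle arrays of all 3 days it was 18. IFITM1, a membrane protein that blocks virus entry, was lower without such spread, at 4.02, 4.76 and 4.92 in MOLM-13 and 11.88, 11.78 and 11.68 in MV4-11 (-7.21 ± 0.15), together with its neighbours IFITM2 (-2.54 ± 0.07) and IFITM3 (-2.07 ± 0.19). TRIM22 differed by -2.37 ± 0.08.

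Among 30 cytokine and chemokine genes 6 were higher and 4 lower, 33.3% called against 17.0% of all genes. CCL28, a mucosal chemokine, was at 7.85, 7.94 and 7.89 in MOLM-13 and at the lowest value in MV4-11 (5.71 ± 0.16), and CCL20, the ligand of CCR6, was higher by 4.06 ± 0.13. IGF1, the insulin-like growth factor, was at the lowest value in all MOLM-13 arrays and at 7.35, 7.59 and 7.74 in MV4-11 (-5.38 ± 0.11). IGF1 passed the filter only through MV4-11, which fixed its direction. IL1B was lower with a wide spread, at 2.57, 3.97 and 2.57 in MOLM-13 and 6.87, 5.74 and 4.95 in MV4-11 (-2.81 ± 0.36).

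Carbohydrate genes differed in both directions, also among isoforms of 1 step. Of 30 glycolysis and lactate genes 4 were higher and 4 lower, with a median of -0.20. SLC16A7 (MCT2), a lactate and pyruvate transporter, was at 9.21, 8.60 and 9.10 in MOLM-13 and at the lowest value in MV4-11 (6.78 ± 0.13). The phosphofructokinase gene PFKM (2.24 ± 0.13) and the regulatory enzyme gene PFKFB3 (1.91 ± 0.12) were higher, while PFKFB2 (-2.38 ± 0.22) and the glucose transporter SLC2A6 (-2.28 ± 0.10) were lower. Of 17 pentose phosphate and NADPH genes H6PD was higher (2.15 ± 0.15), and ME3, the mitochondrial malic enzyme (-3.97 ± 0.27), and the transketolase-like TKTL1 (-2.80 ± 0.22) were lower. Only 1 of 29 tricarboxylic acid cycle genes was called, pyruvate carboxylase (PC, 1.69 ± 0.12), and only 1 of 23 serine, glycine and folate genes, the phosphatase of serine synthesis PSPH (2.48 ± 0.16). The first of these counts was 3 without MV4-11 replicate 1 and 2 without MOLM-13 replicate 1. Against 17.0% of all genes, 26.7% of the 30, 17.6% of the 17, 3.45% of the 29 and 4.35% of the 23 were called.

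Amino acid transporters were higher in 5 of 26 and lower in 0 at the call threshold in limma, and 14 higher and 6 lower at an unadjusted p under 0.05 with no minimum. The share called was 19.2%, near the 17.0% of all genes, and the median was 0.19. SLC7A2, a transporter of arginine and other cationic amino acids, was at 8.66, 8.72 and 8.72 in MOLM-13 and at the lowest value in MV4-11 (6.51 ± 0.05). Treated MV4-11 arrays of day 6 were at the lowest value too, so that on day 6 SLC7A2 reached the filter level only in MOLM-13. SLC38A1, a glutamine transporter, was at 12.27, 12.35 and 12.37 in MOLM-13 and 9.30, 9.24 and 9.17 in MV4-11 (3.10 ± 0.09). With the 3' over 5' difference as a covariate 3 transporters were called. Creatine synthesis genes were lower, GATM by -2.45 ± 0.14 and GAMT by -1.97 ± 0.10, with the creatine kinase CKB at -2.17 ± 0.09. IL4I1, a secreted amino acid oxidase, was at 4.32, 4.72 and 4.74 in MOLM-13 and 9.14, 8.70 and 7.35 in MV4-11 (-3.80 ± 0.33). CTH, of the step that makes cysteine, was higher by 1.96 ± 0.27. Of 33 amino acid and polyamine enzyme genes 4 were higher and 5 lower, 27.3% called against 17.0% of all genes.

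Lipid mediator genes differed in both directions too. Of 15 leukotriene and prostanoid genes 4 were higher and 3 lower. LTC4S, which makes leukotriene C4, was at 4.57, 4.72 and 4.39 in MOLM-13 and 9.65, 9.62 and 9.54 in MV4-11 (-5.04 ± 0.25), whereas LTA4H, which makes leukotriene B4 from the same precursor, was higher (1.49 ± 0.08), as was ALOX5AP, the activating protein of 5-lipoxygenase (2.02 ± 0.17). ALOX5 itself was at 1.14 ± 0.11 with low levels in both lines. The prostaglandin E2 receptor PTGER4 was lower (-2.35 ± 0.08). Of 37 fatty acid and lipid droplet genes 5 were higher, led by the elongase ELOVL6 (4.29 ± 0.19), and 7 lower, led by the cholesterol exporter ABCA1 (-2.68 ± 0.19). Of 23 sterol genes 2 were higher and 1 lower, with DHCR7, of the last step of cholesterol synthesis, at 1.12 ± 0.14 (0.99 without MV4-11 replicate 3). Shares called were 46.7% of the 15, 32.4% of the 37 and 13% of the 23, against 17.0% of all genes.

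Glutathione and iron genes differed in both directions below the call threshold. Among 38 glutathione, thioredoxin and NRF2 genes 5 were higher and 1 lower, with glutathione reductase (GSR) at 11.83, 11.44 and 11.60 in MOLM-13 and 9.58, 9.57 and 9.51 in MV4-11 (2.07 ± 0.14), GCLC, the catalytic subunit of glutathione synthesis, at 1.88 ± 0.09 and NQO1 lower at -1.24 ± 0.17. At an unadjusted p under 0.05 with no minimum 11 of these 38 were higher and 15 lower, the median was -0.03, and in inhibitor-treated cultures 2 were called higher and 12 lower. Of 29 iron and heme genes 7 were higher and 1 lower (11 higher and 9 lower at an unadjusted p under 0.05), and in inhibitor-treated cultures 5 were higher and 8 lower. SLC11A1 (NRAMP1), a phagosome metal transporter, was higher by 3.03 ± 0.18, FLVCR2 by 2.92 ± 0.10, and biliverdin reductase B (BLVRB) was lower at -2.65 ± 0.10. CYBB, the catalytic subunit of the phagocyte oxidase, was the 1 member of 7 called (1.46 ± 0.16). In vehicle cultures 15.8% of the 38, 27.6% of the 29 and 14.3% of the 7 were called, against 17.0% of all genes.

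Few cell cycle and housekeeping genes were called. Of 36 cell cycle genes CENPA alone was called, lower at -1.30 ± 0.16, and 0 of 13 reference housekeeping genes were called in limma, of which 3 were higher and 5 lower at an unadjusted p under 0.05 with no minimum. Of 25 G1 genes E2F5 (3.75 ± 0.19) and E2F3 (1.60 ± 0.10) were higher and CDKN2A lower. Among 32 apoptosis regulators BCL2A1, a BCL2 relative, was higher (3.02 ± 0.22), and TNFRSF10C, a decoy receptor for TRAIL, lower (-2.63 ± 0.35). BCL2 was at 0.02 ± 0.07 and MCL1 at 0.23 ± 0.08. With the mean of its probe sets MCL1 was at -0.73, so its direction depends on the probe set. Of 45 nucleotide genes 2 were higher, with the nucleoside transporter SLC29A2 at 9.01, 8.95 and 9.11 in MOLM-13 and at the lowest value in MV4-11 (6.83 ± 0.06), and 4 lower, with the dNTP hydrolase SAMHD1 at 11.11, 11.07 and 11.08 in MOLM-13 and 13.22, 13.10 and 13.10 in MV4-11 (-2.05 ± 0.07). Of 27 Polycomb and DNA methylation genes 1 was higher and 1, PHF19, lower (-1.70 ± 0.07). The higher one, DNMT3B, a DNA methyltransferase, was at 1.06 ± 0.11, and at 1.00 and uncalled without MOLM-13 replicate 1. Of 46 cancer-testis genes only DDX43 (-3.60 ± 0.34) and TKTL1 passed the filter, both through MV4-11 alone, which fixed their direction. The share called was 2.78% of the 36 cell cycle, 12% of the 25 G1 and 9.38% of the 32 apoptosis genes. For nucleotide genes it was 13.3% and for Polycomb and DNA methylation genes 7.41%. In all, 30 of the 45 lists had a larger share of called members than the 17.0% of all genes.

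**Figure D3:**
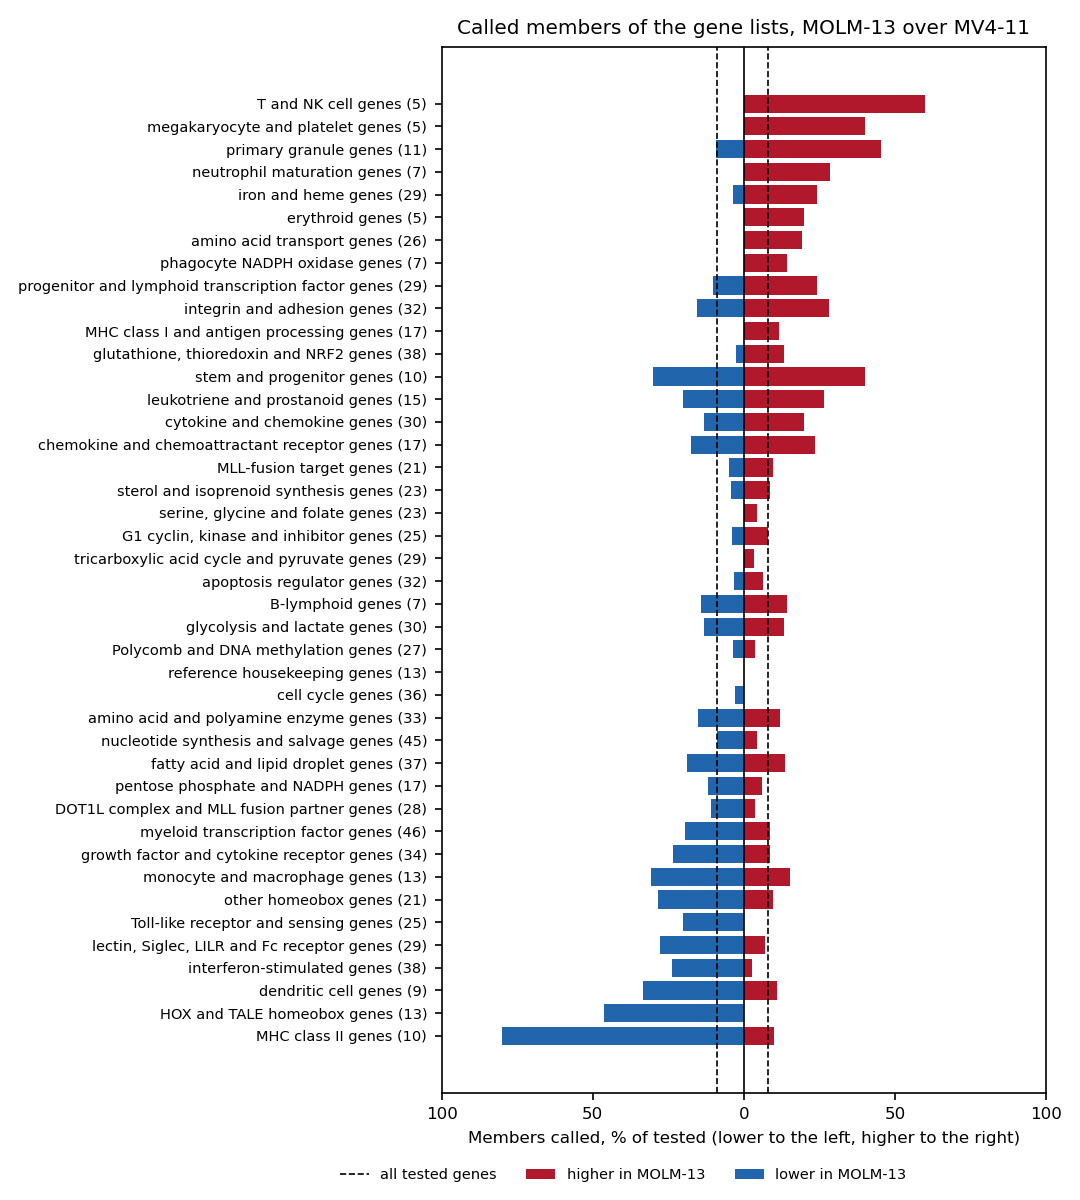
Share of the tested members of each gene list that was called higher (right of 0) or lower (left of 0) in MOLM-13, in percent (x axis), for lists with at least 5 tested members, 1 of them left out (y axis, number tested in brackets). Dashed lines mark the 8.0% higher and 9.0% lower of all tested genes; MHC class II, HOX and dendritic cell lists lie at the lower end, T and NK cell and primary granule lists at the upper end.

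Some genes were measured in 1 line only. By a rule of log2 6 or more in all 3 arrays of a line and under 4 in all 3 of the other, 88 genes were measured in MOLM-13 only and 114 in MV4-11 only. Of the 88, 84 were also under 4 in every MV4-11 vehicle array of days 2 and 4, and of the 114, 105 were also at 6 or more in those arrays. In inhibitor-treated cultures 51 of the 88 and 82 of the 114 met the same rule. All treated MOLM-13 arrays were under 4 in 88 of the 114 genes measured in MV4-11 only. Those passed the filter only through MV4-11, so that their direction was fixed by it. All treated MV4-11 arrays of day 6 were under 4 in 74 of the genes measured in MOLM-13 only. CA2, CCL28, CUX2, SLC7A2 and SLC29A2 had means of 2.19 to 2.27 there. Of genes of chromosome 19 whose symbol is ZNF and a number, the MOLM-13 set held 1 and the MV4-11 set 15.

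ZNF genes of chromosome 19 were lower in MOLM-13 more often than other genes. Most of them belong to the KRAB zinc finger family, which lies in clusters on that chromosome and whose proteins bind DNA, many at transposable elements. Of 157 tested genes of chromosome 19 with a ZNF number as symbol, 57 (36.3%) were lower and 4 higher, with a median of -0.54. Of 174 such genes on other chromosomes 24 (13.8%) were lower, and of 673 other genes of chromosome 19, 74 (11.0%). This grouping was chosen after the values were seen and gets no test. In inhibitor-treated cultures of the same 2 lines 55 of the 57 were lower too, which does not test the grouping. The 15 of these genes that were measured in MV4-11 only passed the filter through MV4-11 alone, so that their direction was fixed by it. ZNF91, which binds primate SVA elements, was at 3.01, 2.62 and 2.32 in MOLM-13 and 10.01, 10.12 and 9.94 in MV4-11 (-7.38 ± 0.38), and ZNF93, which binds L1 elements, at 3.85, 3.42 and 3.86 in MOLM-13 and 10.08, 10.07 and 9.99 in MV4-11 (-6.33 ± 0.09). The MOLM-13 arrays of both lay more than 6 log2 units below those of MV4-11.

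Of the 57 lower ZNF genes of chromosome 19, 32 lay in runs of neighbouring genes and the others outside them. Of 54 runs of 3 or more neighbouring tested genes called in the same direction, 10 of the 29 lower ones were on chromosome 19, and 9 of the 11 runs on that chromosome held a ZNF gene. Chromosome 19 held 830 of the 10944 placed genes and 131 of the 986 placed genes called lower. As ZNF genes lie in clusters there, the runs are not a separate result from the count of lower ZNF genes. The longest run had 8 genes, from ZNF582 to ZNF805, and included PEG3, an imprinted zinc finger gene, at 2.20 in MOLM-13 and 5.29, 5.62 and 5.11 in MV4-11 (-3.14 ± 0.21). In the run ZNF350, ZNF615, ZNF614 and ZNF432 the differences were -4.76 ± 0.43, -4.20 ± 0.10, -6.11 ± 0.11 and -6.71 ± 0.15. ZNF614 was at 2.62, 2.56 and 2.56 in MOLM-13 and 8.58, 8.75 and 8.74 in MV4-11, and ZNF432 at 2.80, 2.19 and 2.19 in MOLM-13 and 9.19, 9.10 and 9.02 in MV4-11. Beside ZNF91, ZNF43 (-3.82 ± 0.37), ZNF675 (-1.22 ± 0.23) and ZNF254 (-1.37 ± 0.13) were lower, and beside ZNF585B (-6.61 ± 0.15) its paralog ZNF585A (-2.99 ± 0.18). ZNF genes are alike in sequence, so the signal of a probe set can be shared between paralogs. The 4 higher genes, ZNF556, ZNF493 (0.99 without MV4-11 replicate 1), ZNF536 and ZNF114, were not in a run and are named after their values were seen.

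Promoters of the neighbours ZNF614 and ZNF432 are shown because both were at the bottom of the range in MOLM-13 and hold CG dinucleotides, the site of DNA methylation, in numbers near the median of tested genes. Methylation was not measured. ZNF614 has 17 and ZNF432 22 CG in the 250 bases before the start (CG in capitals), against a median of 21 in the tested genes with a RefSeq promoter. The median was 16 in 49 lower ZNF genes and 18 in 90 that were not called, and 19 in MV4-11-only and 16 in MOLM-13-only genes. Both are on the minus strand of GRCh38.p14, at chr19:52028380-52028629 and chr19:52048839-52049088.
ZNF614: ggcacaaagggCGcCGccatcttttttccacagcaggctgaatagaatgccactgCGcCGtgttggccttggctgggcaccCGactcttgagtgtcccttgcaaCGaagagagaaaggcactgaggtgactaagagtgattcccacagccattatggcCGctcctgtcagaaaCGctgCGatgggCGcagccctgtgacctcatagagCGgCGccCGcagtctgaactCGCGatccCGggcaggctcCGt
ZNF432: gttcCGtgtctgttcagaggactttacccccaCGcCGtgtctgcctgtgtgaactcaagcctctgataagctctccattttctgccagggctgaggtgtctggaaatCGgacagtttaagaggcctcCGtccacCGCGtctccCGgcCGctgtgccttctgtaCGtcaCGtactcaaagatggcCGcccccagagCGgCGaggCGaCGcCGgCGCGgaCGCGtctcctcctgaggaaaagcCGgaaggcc

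**Figure D4:**
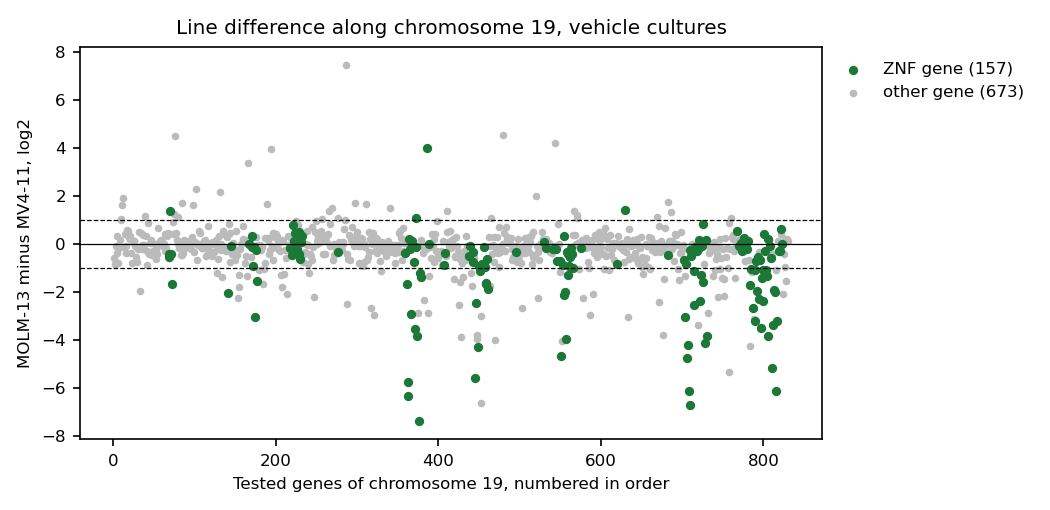
Difference between MOLM-13 and MV4-11 vehicle arrays (log2, y axis) of each tested gene of chromosome 19 in gene order (x axis). Genes whose symbol is ZNF and a number are in green, and all others, ZNF585A and ZNF585B among them, in grey. Dashed lines mark 2-fold. ZNF genes lie in clusters whether or not they are below the lower line, and ZNF91 is lowest at -7.38.

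On other chromosomes 2 of the runs held a ZNF gene. On chromosome 13 PROSER1, a proline and serine rich protein, and NHLRC3 were lower at -7.31 ± 0.05 and -5.70 ± 0.12, PROSER1 at 2.22, 2.19 and 2.22 in MOLM-13 and 9.51, 9.57 and 9.48 in MV4-11 and NHLRC3 at 2.24, 2.77 and 2.24 in MOLM-13 and 8.16, 8.10 and 8.09 in MV4-11. The next gene, LHFPL6, differed by -2.32 ± 0.22. Both probe sets of PROSER1 and all 3 of NHLRC3 were lower. The 2 genes start head to head, and their RefSeq windows of 300 bases share 279, so the sequence below, the 250 bases before the PROSER1 start on the minus strand of GRCh38.p14 (chr13:39038090-39038339), is shown as the start region of both. It has 10 CG, in capitals.
PROSER1: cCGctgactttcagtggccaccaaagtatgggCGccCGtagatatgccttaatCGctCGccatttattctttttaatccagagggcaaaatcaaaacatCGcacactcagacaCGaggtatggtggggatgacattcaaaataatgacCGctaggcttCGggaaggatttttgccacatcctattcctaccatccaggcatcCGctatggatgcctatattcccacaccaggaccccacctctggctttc
On chromosome 3 PTPRG, a receptor phosphatase, was lower (-3.26 ± 0.19) beside CEP15. On chromosome 11 MS4A4A (-4.24 ± 0.30) was lower beside MS4A3 and MS4A6A, and PGGHG (-1.63 ± 0.14) beside the IFITM genes. On the X chromosome TCEAL8 (-1.30 ± 0.13) and TCEAL9 (-3.75 ± 0.09) were lower beside BEX3. Runs that were higher included IL23R (3.67 ± 0.10) and IL12RB2 (5.66 ± 0.27), chains of the IL-23 and IL-12 receptors, on chromosome 1. There too RGS18, RGS1 and RGS2, inhibitors of G protein signaling, were higher by 1.28 ± 0.19, 3.76 ± 0.37 and 3.35 ± 0.07. CA13 (3.33 ± 0.27) and WWP1 (1.72 ± 0.08) were higher beside CA2. PLPPR3 was the first of a run with AZU1, PRTN3 and ELANE on chromosome 19.

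On chromosome 9, where CDKN2A was lower in both of its probe sets (-6.90 and -7.87), MTAP, the neighbouring methylthioadenosine phosphorylase gene, was lower in all 4 probe sets (-0.68 to -3.61). On its own probe set of highest level MTAP was at 7.91, 7.99 and 8.11 in MOLM-13 and 8.66, 8.67 and 8.72 in MV4-11, and the mean of its probe sets differed by -1.25. FOCAD (-1.04 ± 0.07), HACD4 (-1.07 ± 0.08) and KLHL9 (-1.52 ± 0.08) formed a lower run on the same chromosome. Copy number was not measured.

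The median over the genes of a chromosome passed 0.3 on 3 chromosomes. The median difference was 0.48 over 564 genes of chromosome 6, 0.49 over 394 genes of chromosome 8 and 0.60 over 201 genes of chromosome 13, while the other 20 chromosomes lay between -0.14 (chromosome 19) and 0.09 (chromosome 20). In single MOLM-13 arrays, set against the MV4-11 mean, the chromosome 6 median was 0.49, 0.50 and 0.45, that of chromosome 8 was 0.49, 0.48 and 0.46, and that of chromosome 13 was 0.62, 0.58 and 0.58. Single MV4-11 arrays lay between -0.02 and 0.02 on all 3 chromosomes. Higher values were found in 78.0% of the genes of chromosome 6, 80.7% of chromosome 8 and 81.6% of chromosome 13, against 47.3% of all placed genes. At the call threshold 18.6%, 18.0% and 28.4% of their genes were higher, against 7.97% of all placed genes. In windows of 40 neighbouring genes, 25 of the 29 windows with a median of at least 0.3 were on these chromosomes, which hold 29 windows in all, and windows there ranged from 0.15 to 0.72. Of the other 4 windows, 3 were the first 3 of chromosome 20, from ZCCHC3 to NOL4L, with medians of 0.63, 0.65 and 0.32, while the other 5 windows of that chromosome lay between -0.19 and 0.0015. In inhibitor-treated cultures the medians were 0.36, 0.35 and 0.39. Among genes of chromosome 13, DLEU2, TRIM13, KCNRG, DLEU1 and RNASEH2B formed a higher run of 5 (1.06 to 2.31). Genes named above that lie on these chromosomes, such as CA2 on chromosome 8, DACH1 on chromosome 13 and HLA-DRA on chromosome 6, can have differences far from their chromosome's median.

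**Figure D5:**
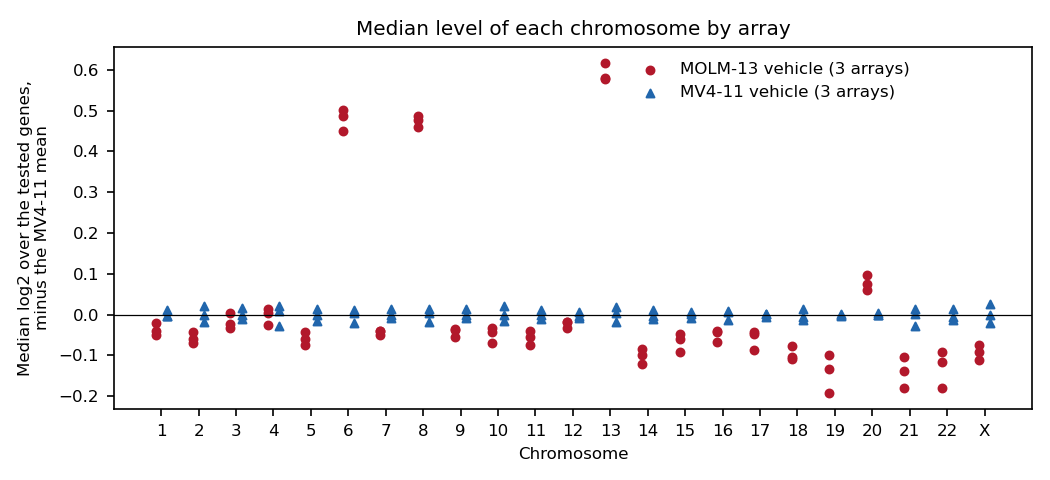
Median over the tested genes of each chromosome (x axis) of the log2 level minus the MV4-11 vehicle mean (y axis), 1 point per array; circles are MOLM-13 and triangles MV4-11 vehicle arrays. The 3 MOLM-13 arrays stand near 0.5 on chromosomes 6 and 8 and near 0.6 on chromosome 13, and within 0.2 of 0 on the others.

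The line differences were set beside the same comparison in the 3 MOLM-13 and 3 MV4-11 arrays treated with 3 uM EPZ004777 for 6 days, which the vehicle comparison does not use. There 2983 genes (27.2%) were called, 1080 (9.84%) higher and 1903 (17.3%) lower in MOLM-13. By the interaction term of limma the line difference itself changed with treatment in 5709 genes (52.0%, adjusted p under 0.05). Called in both in the same direction were 1369 genes, 73.4% of the vehicle calls and 45.9% of the treated calls, and 20 were called in opposite directions. Of the 210 genes with at least 16-fold differences 206 were called in the same direction in treated cultures. DYNC1I1, a dynein intermediate chain, was not: it differed by 0.26 ± 0.13 in treated cultures, and by 6.84 ± 0.13 in vehicle cultures, where it was at 9.03, 8.98 and 9.08 in MOLM-13 and at the lowest value in MV4-11. NAV3, a microtubule-associated protein of neurons, differed by -1.36 ± 0.08 in treated and -7.43 ± 0.08 in vehicle cultures, and IL12RB2 by 1.48 ± 0.27 in treated and 5.66 ± 0.27 in vehicle cultures. HLA-DPA1 went further apart, with -10.85 ± 0.10 in treated and -5.45 ± 0.10 in vehicle cultures, and so did IGF1, with -10.26 ± 0.11 in treated and -5.38 ± 0.11 in vehicle cultures. The 3' over 5' difference was 2.10 to 2.84 in treated MOLM-13 arrays and 0.83 to 1.91 in treated MV4-11 arrays. With it as a covariate 2810 genes were called in treated cultures, 1100 higher and 1710 lower. Its part in the interaction and in the treated values of single genes was not tested.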

How the data were processed

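RNA of the 2 leukemia lines was hybridised to Affymetrix arrays with 54675 probe sets, 24 arrays in all. The deposited values are linear intensities, which the authors made with GCRMA, per the submitters' processing notes. GCRMA corrects background by probe composition and normalizes arrays together, so that values at its floor (log2 2.19) hold no signal. Versions and other settings were not given in the sources used here, and the depth of an array cannot be stated: its 3 replicates limit the precision.

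From these, log2 of the deposited intensity was taken with no pseudocount. A probe set was used if the platform annotation gave it 1 gene symbol (41097; 1801 had several and 11777 none). Probe sets with log2 of at least 4 in at least 3 arrays were kept, and the one of highest mean stood for the gene, which left 10971 genes. Symbols were matched to RefSeq (41043 probe sets matched). The means of 8 groups came from 1 limma model of the 24 arrays (limma 3.58.1, R 4.3.3, 16 residual degrees of freedom), with Benjamini-Hochberg adjustment over all genes. Calls needed an adjusted p under 0.05 with at least a 2-fold difference. An exact permutation test of 3 against 3 arrays cannot go below 0.1, so none was used. On simulated data, 100 of 100 genes changed by 1.5 and 100 of 100 changed by 3 log2 units were called in the right direction, with 0 false calls. The simulation drew independent normal noise with the fitted spread of each gene. It had no floor and no shifts shared by the genes of an array, so it checks the steps and gives no rate of false calls here. Figures and sequence searches used Python 3.11.15, pandas 2.3.3 and matplotlib 3.10.9.

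Named genes were the 15 largest differences each way among called genes without overlap and with a mean of at least 8 in the higher line, a panel of 32 genes (6 were not tested), up to 5 called members of each of 45 lists, members of runs of 3 or more neighbouring called genes, and uncalled members with their values. A further 10 sex-linked genes and the members of 1 list are not reported here. The comparison, the members and the lists were chosen with earlier results of these data known. The alternatives tried changed the filter, the normalization, the probe set per gene, the variance prior, the arrays in the fit, the call, the replicate block and an RNA quality covariate.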

Additional observations from a re-analysis of the deposited data

Results flagged for a closer look

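The difference between the lines was not the same in EPZ004777-treated and in vehicle cultures for 141 of the genes named above, by limma's interaction term with a Benjamini-Hochberg adjusted p under 0.05, which 5709 genes (52.0% of all tested) passed. The value given for each is the treated line difference minus the vehicle line difference in log2, each line difference being MOLM-13 minus MV4-11. The line difference was wider in treated cultures in 54 genes, narrower in 74 and of another sign in 13. The 3' over 5' difference of the arrays, given above, moved with treatment as well, and its part was not tested.

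Among genes whose difference was wider in treated cultures, MHC class II genes and their regulators were HLA-DPA1 (-5.40), HLA-DRA (-4.70), HLA-DRB1 (-3.36), CIITA (-2.65), HLA-DMA (-2.50), HLA-DMB (-1.98) and CD74 (-1.08), all further below MV4-11, and HLA-DOB, further above it (0.80). Further above MV4-11 among myeloid genes were CYBB (3.84), MPO (1.29), ALOX5 (1.37), PBX3 (0.94), SPI1 (0.57), GFI1 (0.37) and S1PR4 (0.42), and further below it KIT (-2.12), LTC4S (-1.18), MEIS1 (-1.38), TLR1 (-1.27), ITGA2B (-0.88), FLT3 (-0.79), IL1RAP (-0.74), IRF8 (-0.58) and CSF1R (-0.50). HOX genes that were further below MV4-11 were HOXC6 (-1.21), HOXB3 (-0.97) and HOXB4 (-0.62), together with IGF1 (-4.88) and MYC (-0.51). Metabolic and transport genes were DHCR7 (3.34), SLC16A7 (0.68), CA2 (0.39) and SLC29A2 (0.36) on the higher side and ME3 (-1.84), PFKFB2 (-1.59), NQO1 (-1.39) and BLVRB (-0.34) on the lower side. Lymphoid and progenitor genes on the higher side were CD3D (2.59), LAPTM4B (1.03) and CD24 (0.88), and the other higher genes RGS2 (1.15), DLEU2 (1.11), FEZ1 (0.93), DNMT3B (0.80), ZNF536 (0.80) and E2F3 (0.44). The other genes that were further below MV4-11 were TCEAL8 (-1.54), ADGRA3 (-1.49), FOXP2 (-1.07), ADD2 (-1.05), NHLRC3 (-0.99), ZNF585A (-0.70), EPIST (-0.63) and ZNF615 (-0.40).

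Narrower differences of genes that were higher in MOLM-13 were found in DYNC1I1 (-6.58) and TSPOAP1 (-4.73), and in the receptor chains IL12RB2 (-4.18) and IL23R (-3.49). Transcription factors of that kind were DACH1 (-2.98), ZBTB16 (-2.84), E2F5 (-1.99), BCL6 (-1.72), NFE2 (-1.27), ZNF521 (-1.18), ZNF556 (-0.80), CEBPA (-0.65) and CUX2 (-0.29), and granule and myeloid genes PRG2 (-2.35), CTSS (-1.17), ELANE (-1.05), EPX (-0.82), PRTN3 (-0.69), AZU1 (-0.64) and LTA4H (-0.56). Metabolic, iron and transport genes were FLVCR2 (-2.05), CTH (-1.80), PC (-0.90), PFKM (-0.91), SLC11A1 (-0.86), SLC7A2 (-0.80), GCLC (-0.76) and H6PD (-0.69), and the chemokine CCL28 (-2.47) and the adhesion gene CADM1 (-2.09) stood with them. The rest were SYNPO2 (-1.72), SKIDA1 (-1.5), ZDHHC2 (-1.31), RUBCNL (-1.17), SENP6 (-1.11), RNASEH2B (-0.86), ERAP2 (-0.73), DLEU1 (-0.60) and TRIM13 (-0.34).

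Narrower differences of genes that were lower in MOLM-13 were led by NAV3 (6.07), IL4I1 (3.72) and the imprinted PEG3 (3.03). Receptor and surface genes were TNFRSF10C (2.43), LILRB2 (1.91), FCER1G (1.67), ICAM1 (1.59), LILRA1 (1.56), ITGA6 (1.5), IL2RA (1.45), MS4A4A (1.34), TLR2 (1.09), CCR1 (0.87), CD36 (0.79), MS4A3 (0.63), MPEG1 (0.58), CD180 (0.50) and PTGER4 (0.44), and IL1B was at 2.44. Transcription and chromatin genes were EGR3 (1.88), TCF7L2 (1.5), HOXB6 (1.18), ELL2 (1.14), PHF19 (0.94) and VENTX (0.52). KMT2A was at 0.79 on the 1 probe set that stood for it, and its probe sets disagree in direction. The rest were SAMHD1 (1.20), TRIM22 (1.19), CEP15 (1.17), BEX3 (0.98), UNC5C (0.90), GTSF1 (0.89), NDN (0.72), CDKN2A (0.65) and FOCAD (0.28).

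The sign of the line difference was not the same in treated and vehicle cultures, or the vehicle difference was 0, in ABCA1 (3.07), DLX1 (2.72), SLC2A6 (2.59), CD14 (2.23), S100A9 (1.91) and LYZ (0.38), toward MOLM-13 in treated cultures, and in IGLL1 (-4.71), SOCS2 (-2.90), CTSG (-2.06), IL7R (-2.05), SPIB (-1.78), MEF2C (-0.50) and BCL2 (-0.46), toward MV4-11.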

How the results depend on the processing

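The call counts held within 1.5 times under every setting of filter, normalization, variance prior and sample choice, from 1432 with probe sets averaged per gene to 1902 without 1 array. They did not hold under another unit or minimum: in vehicle cultures 6996 genes passed with no minimum (3372 higher, 3624 lower), 739 at 4-fold (331 higher, 408 lower) and 3807 probe sets (1738 higher, 2069 lower), and in treated cultures 6145 probe sets (2475 higher, 3670 lower). Leaving out 1 array gave 1868 to 1902 genes (867 to 900 higher, 968 to 1035 lower), 30 to 32 lists, 56 to 60 lower ZNF genes, 89 to 94 MOLM-13-only and 114 to 123 MV4-11-only genes, and 2906 to 3135 genes (1064 to 1150 higher, 1842 to 1985 lower) in treated cultures. MV4-11-only genes numbered 68 at limits of 7 and 4, and 179 at 6 and 5. Chromosome medians ranged over 0.47 to 0.50 (6), 0.47 to 0.49 (8), 0.58 to 0.61 (13), -0.15 to -0.12 (19) and 0.08 to 0.11 (20) without 1 array. They were 0.52 (6) and 0.12 (20) at a filter of log2 6, and 0.47 (8) on a common median. The median of all genes was -0.02 as deposited, -0.03 after quantile normalization and -0.04 on a common median. The replicate block gave 1865 genes and changed no call. Same-numbered arrays of the lines shared only a number (correlations of deviations -0.05, 0.04 and 0.09), and not every array correlated best with its own number.

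Direction turned in genes near 0, in MCL1 and in ERAP1, and the cause was not tested. With the mean of probe sets the differences were -0.0088 (AFF1), -0.13 (BCL2), -0.73 (MCL1) and -0.18 (ERAP1, called on 1 probe set). After quantile normalization they were -0.034 (HOXB5), 0.037 (LYZ) and 0.030 (MYC), and on a common median -0.0062 (HOXB5) and -8e-04 (BCL2). With the 3' over 5' covariate, chosen after seeing the data, they were -0.11 (BCL2), 0.15 (HLA-DMB) and 0.25 (MYC). Without 1 array they ranged over -0.12 to 0.060 (LYZ), -0.25 to 0.13 (HLA-DMB), -0.0092 to 0.024 (HOXB5), -0.049 to 0.22 (SPI1) and -0.038 to 0.012 (MYC), and with all 9 MV4-11 vehicle arrays they were -0.0061 (HOXB5), 0.11 (LYZ), 0.062 (MYC) and -0.025 (SPI1). Of 196 called genes named, 27 lost the call at least once, most of them (21) under the mean of probe sets. That mean moved 13 of the 45 list counts by over 1.5 times, namely neutrophil to 1, dendritic to 2, B-lymphoid to 0, MHC class I to 1, progenitor factors to 5, DOT1L complex to 2, cytokines to 6, glycolysis to 5, sterol to 0, leukotriene to 4, iron to 4, NADPH oxidase to 0 and apoptosis to 1. The log2 6 filter put the B-lymphoid and apoptosis counts at 1. The covariate put the tricarboxylic acid and serine counts at 2, amino acid transport at 3 and the cell cycle at 0, and all 9 MV4-11 arrays put interferon at 18, serine at 2 and sterol at 1. Without MOLM-13 replicate 1 the Polycomb count was 1, and without its replicate 3 the sterol count. The list counts were not run over every probe set. Arrays of 3 per group limit the precision, and values at the floor give no order.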
